A study of Mus musculus with 22 samples.

Results

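The levels of 9 genes for secreted or membrane-bound factors of tissue repair and matrix remodelling were compared across the dendritic cell (DC) subsets of mouse spleen and mesenteric lymph node (MLN). The genes were listed by name, with earlier results of these data known and with no threshold on a measured level: the epidermal growth factor (EGF) receptor ligands Areg and Hbegf, the matrix metalloproteinases Mmp9, Mmp12 and Mmp14, the metalloproteinase inhibitor Timp1, the growth factors Vegfa and Tgfb1, and the IL-6 family cytokine Osm. All 9 were listed among the 34047 genes of the RNA sequencing (RNA-seq) table, and 64 of the 177956 windows of 150 bases in the chromatin accessibility (ATAC-seq) table were assigned to them.

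Matrix metalloproteinases cut collagens, elastin and other proteins of the extracellular matrix, and TIMP1 binds and blocks many, though not all, of them. Amphiregulin (AREG) and HB-EGF are made as membrane-bound precursors, are released by sheddases, and drive growth of epithelial cells through the EGF receptor, while VEGF-A drives growth of blood vessels. TGF-β1, held latent until it is activated, restrains T cells and promotes matrix deposition, and oncostatin M (OSM) signals to stromal and epithelial cells through gp130.

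The samples were classical DCs (cDCs) of Tbx21RFP-cre mice, in which a red fluorescent protein (RFP) and Cre are expressed from the locus of the transcription factor T-bet (Tbx21). All groups carried this reporter, the labels name no treatment, and the mice were 6 to 10 weeks old, of both sexes and sex-matched. Sorted cDC1s, T-bet+ cDC2s (RFP+) and T-bet- cDC2s (RFP-) from pooled organs gave 16 RNA-seq libraries (3 of each subset from spleen, and 3 of cDC1s, 2 of T-bet+ cDC2s and 2 of T-bet- cDC2s from MLN) and 6 ATAC-seq libraries (2 of each subset from spleen). Lineage-positive, CD64+ and Ly6C+ cells were gated out in the sort.

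The RNA-seq libraries held 20993220 to 29006549 counted reads and the ATAC-seq libraries 7270164 to 10081555 reads in windows. No pair of libraries held identical counts. The subset markers followed the labels. Levels are CPM, counts per 1000000 counted reads of a library, with the library's total scaled by TMM (trimmed mean of M-values). The summed level of 7 cDC1 markers was 3230 to 7130 CPM in cDC1s against 148 to 654 in cDC2s. Tbx21 stood at 17.2 to 24.9 CPM in spleen T-bet+ cDC2s and 0.289 to 2.38 in spleen T-bet- cDC2s. In MLN it stood at 2.93 to 7.18 in T-bet+ cDC2s and 0.538 to 0.918 in T-bet- cDC2s. Spleen libraries fell into 2 classes that divided cDC1s and T-bet- cDC2s, while all T-bet+ cDC2s were in 1 class. Across 7583 genes, a library's deviation from the spleen mean correlated with the GC content of the most GC-rich 100 bases of the transcript at a Spearman rho of 0.19 to 0.33 in cDC1 replicates 1 and 2, all T-bet+ cDC2 replicates and T-bet- cDC2 replicate 3, and at -0.30 to -0.46 in cDC1 replicate 3 and T-bet- cDC2 replicates 1 and 2 (genes are not independent, so no p is given). Among 11857 genes, Mmp14, Vegfa and Areg lie at percentiles 94.0, 89.7 and 84.2 of this GC measure, Mmp12 and Timp1 at 15.2, and the other members between 51.9 and 63.5. Fits with library class as a further term, and without T-bet- cDC2 replicate 3, were therefore also made. Without that replicate, the T-bet+ and T-bet- cDC2 libraries of spleen are in different classes throughout. That fit shows the weight of 1 library and cannot tell class from cDC2 subset.

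In GRCm38 (mm10), with the GENCODE gene models used here, Areg spans bases 91139599 to 91148432 of chromosome 5, Hbegf 36504927 to 36515805 of chromosome 18, Mmp9 164940780 to 164955850 of chromosome 2, Mmp12 7344381 to 7369499 of chromosome 9, Mmp14 54431612 to 54445364 of chromosome 14, Vegfa 46016993 to 46032369 of chromosome 17, Tgfb1 25687002 to 25705077 of chromosome 7, Osm 4236420 to 4241026 of chromosome 11 and Timp1 20870166 to 20874735 of chromosome X. All are protein coding genes, and Hbegf and Vegfa lie on the minus strand.

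Per kilobase of merged exons, the member with the highest level differed by subset. The length used is that of all annotated exons of a gene together, 7237 bases for Mmp12 and 3539 for Mmp9. It can exceed that of the expressed transcript, so the order of the members depends on it. As CPM, the means of Mmp9 and Mmp12 were 220 and 205 in spleen T-bet+ cDC2s. Those of Mmp12 and Osm were 364 and 111 in spleen T-bet- cDC2s. On the scale of CPM per kilobase of exons (RPKM, mean ± SD), spleen T-bet+ cDC2s were led by Mmp9 at 62.3 ± 4.15 (n = 3), followed by Mmp12 at 28.4 ± 3.36 and Tgfb1 at 24.8 ± 1.12, whose spreads touch. Spleen T-bet- cDC2s were led by Mmp12 at 50.2 ± 19.8 and Osm at 48.9 ± 8.39, which do not differ beyond their spread, ahead of Tgfb1 at 17.5 ± 9.69 and Vegfa at 17.3 ± 10.5. In cDC1s Tgfb1 was first in spleen at 16.5 ± 6.75, with Osm next at 2.30 ± 0.84, and Tgfb1 and Osm were close in MLN at 5.29 ± 1.19 and 4.71 ± 2.86. Osm came first in MLN T-bet- cDC2s at 52.6 ± 19.0 (n = 2), ahead of Tgfb1 at 6.30 ± 3.57, and in MLN T-bet+ cDC2s Osm at 7.01 ± 0.55 and Tgfb1 at 5.58 ± 3.39 did not differ beyond their spread. Hbegf was among the lowest in spleen, at 0.10 to 0.65 RPKM as a mean per subset, and Timp1 was near or at 0 everywhere.

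**Figure D1:**
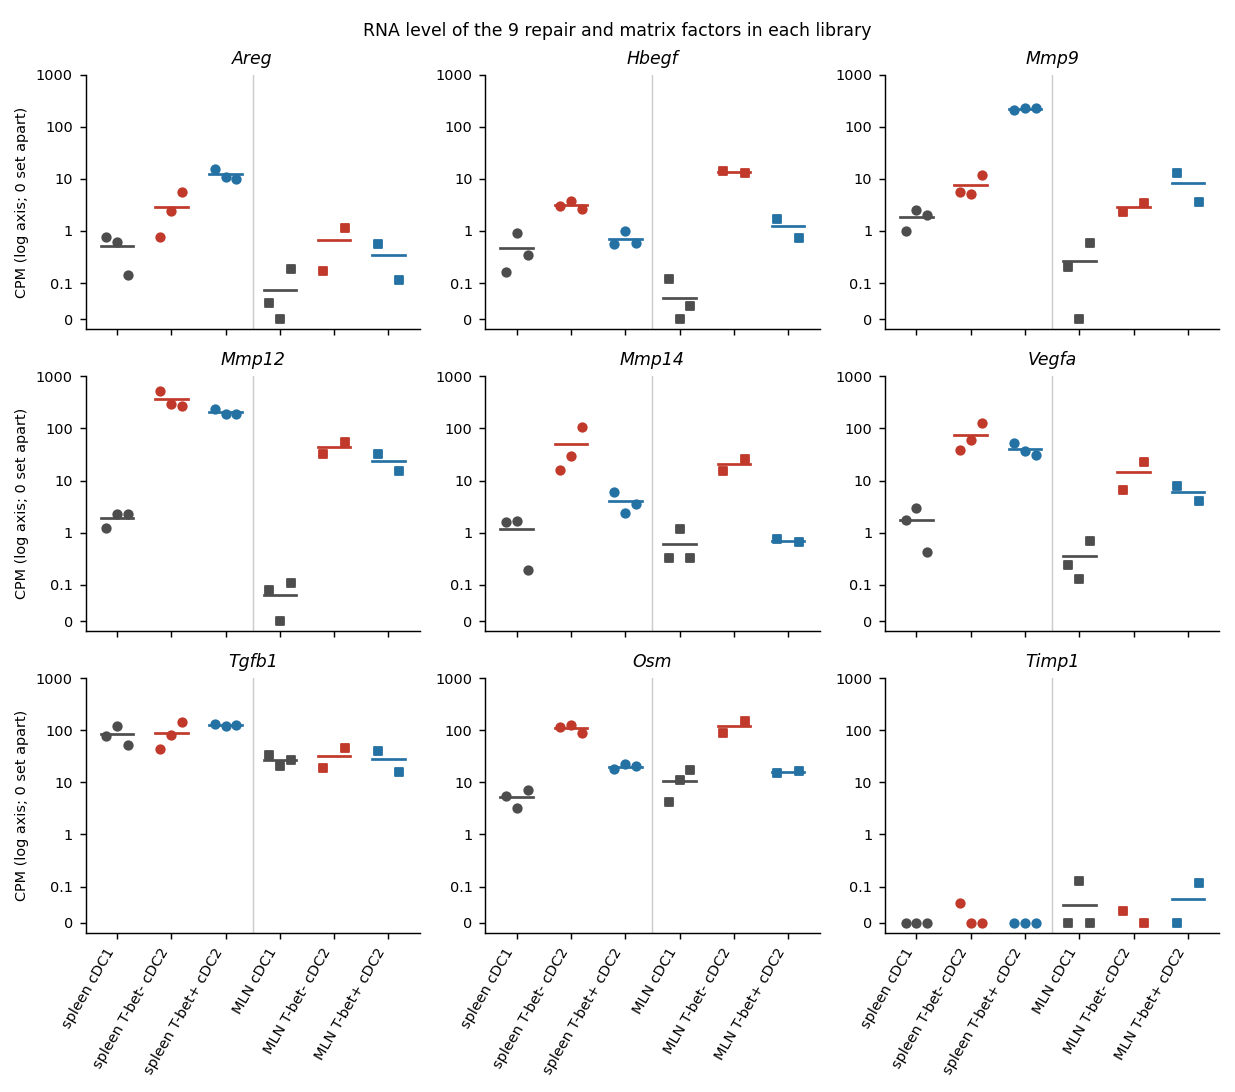
RNA level of each of the 9 genes (CPM, log axis with 0 set apart) in every library, with a point for each library, a line at the group mean, circles for spleen and squares for MLN. Mmp9 is highest in spleen T-bet+ cDC2s (204 to 233 CPM), Osm and Mmp14 are higher in the T-bet- cDC2 libraries than in the T-bet+ cDC2 libraries of both tissues, and Timp1 has no more than 3 reads in any library.

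The first question was how the 2 cDC2 subsets differ in these factors. In spleen, 8 of the 9 members passed the filter on low counts (Timp1 did not), and 3 of the 8 differed between the cDC2 subsets in the quasi-likelihood test of edgeR (adjusted p under 0.05), against 5.38% of the 14377 genes tested. Mmp9 was higher in T-bet+ cDC2s, and Mmp14 and Osm were higher in T-bet- cDC2s. Mmp14 and Osm belong to a list of genes of T-bet- cDC2s that the study drew from these same libraries, and Mmp9 and Areg are named in its text for T-bet+ cDC2s, so the direction of these 4 is not independent evidence. The median log2 fold change was -0.85 over the 8 members and -0.01 over all genes tested. The p-values throughout measure the spread between these libraries, and in bulk samples fewer cells of a type and less RNA per cell cannot be told apart.

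Both cDC2 subsets were also compared with cDC1s, in comparisons that share the cDC1 and cDC2 libraries with one another. In spleen, 5 of 8 members were higher in T-bet+ cDC2s than in cDC1s, against 18.2% of genes called in either direction, and 7 of 8 were higher in T-bet- cDC2s, against 15.9%. None was lower. The median log2 fold change of the members was 3.24 and 3.57, against 0.03 and -0.01 over all genes. Of the 8 members, Tgfb1 alone was called in neither comparison.

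**Figure D2:**
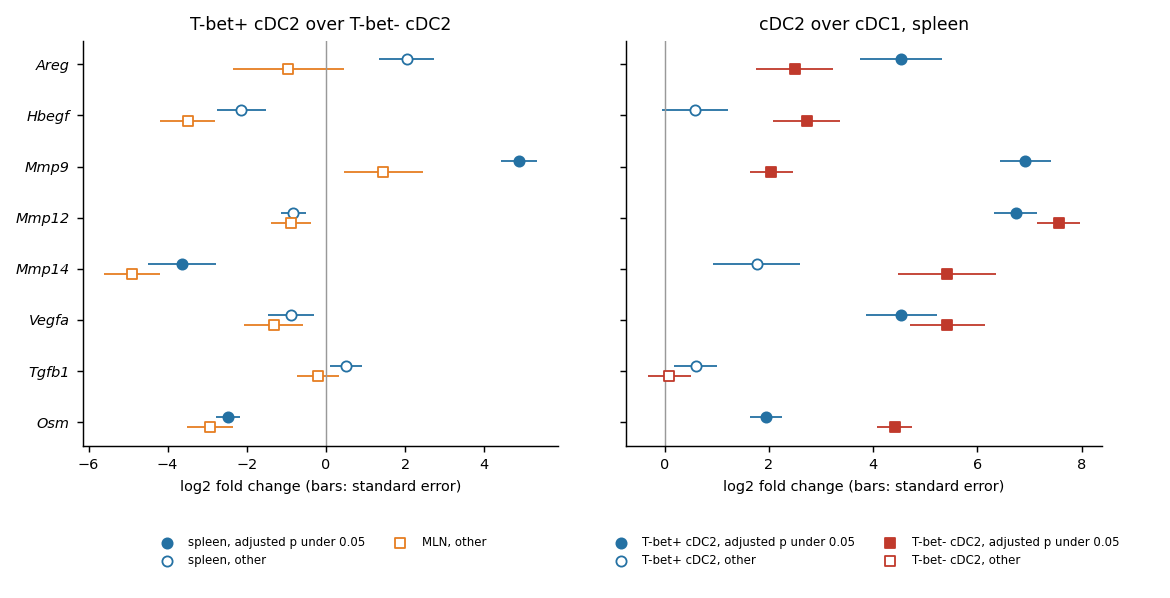
Log2 fold change of 8 of the 9 genes with its standard error, T-bet+ over T-bet- cDC2s in spleen (3 libraries each) and MLN (2 libraries each) on the left, and each cDC2 subset over cDC1s in spleen on the right; filled symbols have an adjusted p under 0.05. Mmp9 is to the right of 0 and Mmp14 and Osm are to the left on the left panel in both tissues, and Tgfb1 is near 0 in all 4 comparisons.

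In MLN no member was called between T-bet+ and T-bet- cDC2s by edgeR, nor was any of the 15298 genes tested (0.0%), although 3 of 8 members (Hbegf, Mmp14 and Osm) and 1444 genes had an unadjusted p under 0.05. DESeq2 called the same 3 members, all lower in T-bet+ cDC2s, and 328 of 16160 genes (2.03%). Against cDC1s, 4 of 8 members were higher in T-bet+ cDC2s (6.22% of genes called) and 5 of 8 in T-bet- cDC2s (5.79%). Leaving out T-bet+ cDC2 replicate 1 reduced the first count to 1, leaving out either T-bet- cDC2 replicate reduced it to 2, and leaving out T-bet- cDC2 replicate 2 reduced the second to 3.

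Over all members, 62 of the 64 windows passed the filter. Between T-bet+ and T-bet- cDC2s 4 were called (2 in each direction) at an adjusted p under 0.01 and a log2 fold change over 0.5 in size, against 6.28% of the 166547 windows tested, which is close to the share among the members' windows. T-bet+ cDC2s had 18 windows higher and 3 lower than cDC1s, against a background of 23.0% called, and T-bet- cDC2s had 17 higher and 3 lower, against 17.9%. The 3 lower windows lay at Mmp12 in both cases. Windows of 1 gene share its locus and are not replicates of one another. Some neighbours also overlap in sequence and can share reads, as at Osm +303, +394 and +476 and at Vegfa -13292 and -13395.

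**Figure D3:**
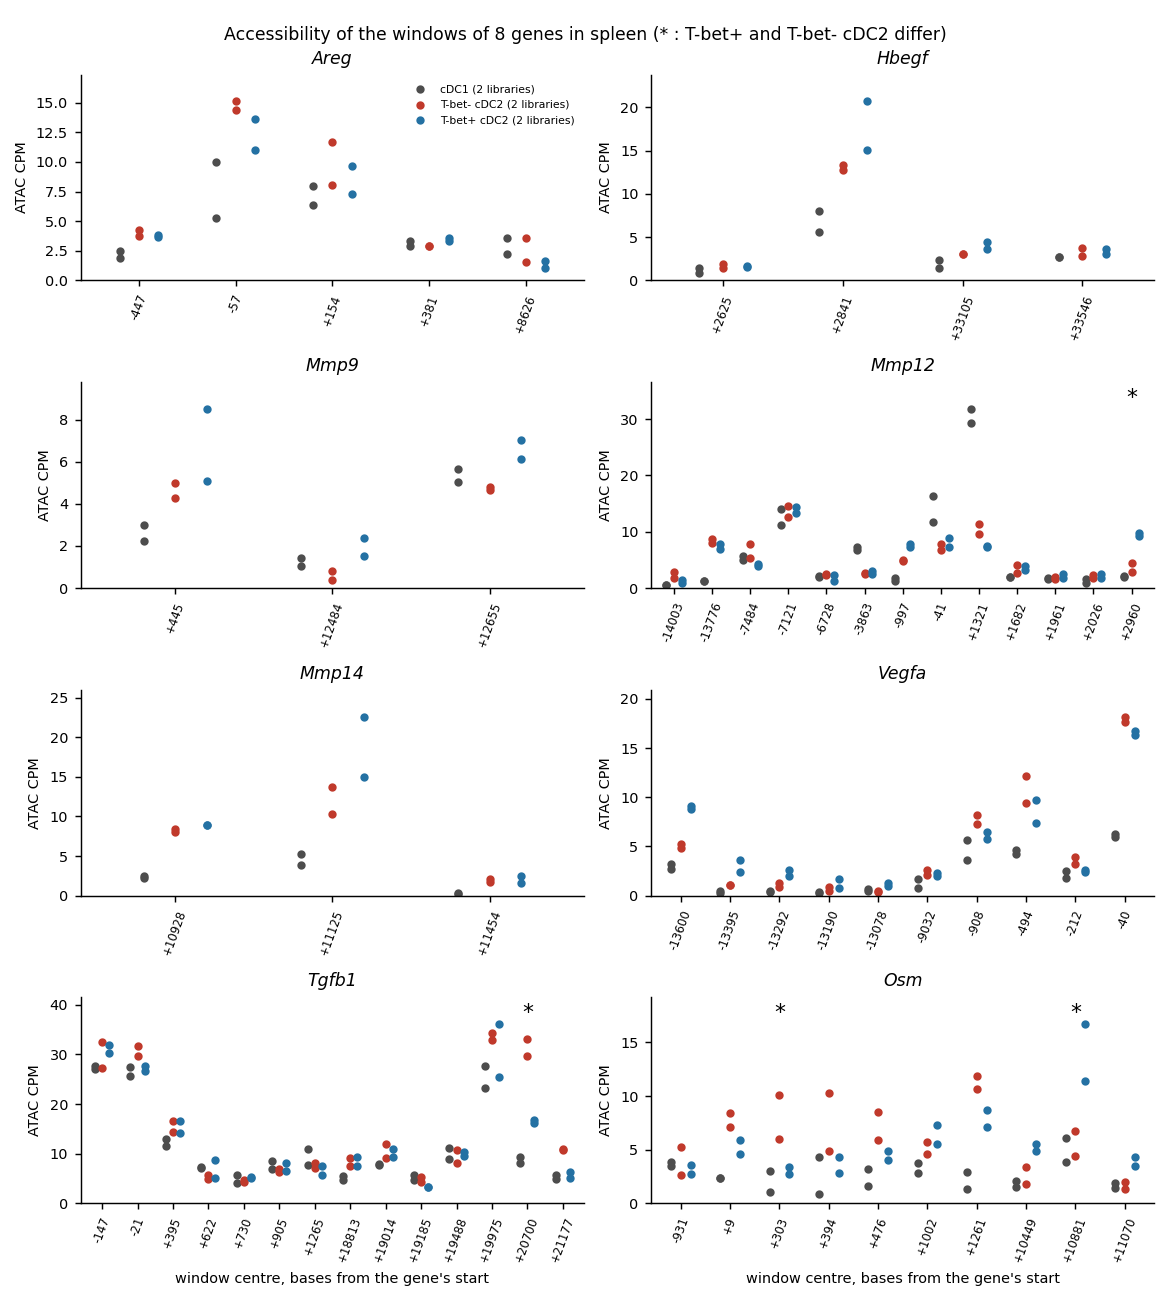
ATAC-seq level (CPM of the reads in windows, linear axes from 0) in the windows of 8 of the 9 genes, set side by side in the order of their distance from the gene's start (the spacing is not to scale), with a point for each of 2 libraries per subset. An asterisk marks the 4 windows called between cDC2 subsets; the Mmp12 window at +1321 is highest in cDC1s (29.4 and 31.8), and the Tgfb1 window at +20700 is highest in T-bet- cDC2s (29.7 and 33.1).

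Of the EGF receptor ligands, Areg had more transcript in spleen T-bet+ cDC2s and Hbegf in T-bet- cDC2s. Areg, an amphiregulin known from innate lymphoid cells and regulatory T cells in repair, stood at 15.6, 10.6 and 10.1 CPM in spleen T-bet+ cDC2s, at 0.770, 2.42 and 5.59 in T-bet- cDC2s, and at 0.769, 0.617 and 0.145 in cDC1s. The 3 groups did not overlap, although the lowest T-bet- cDC2 library and the highest cDC1 library were nearly level. The difference between cDC2 subsets did not pass the test (log2 fold change 2.04 ± 0.69 (SE), adjusted p = 0.14), while T-bet+ cDC2s exceeded cDC1s by 23.3-fold (log2 fold change 4.54 ± 0.79, adjusted p = 0.0033). T-bet- cDC2s exceeded cDC1s by 5.65-fold at an adjusted p of 0.048, a call that was lost in 8 of the 9 fits that left out 1 spleen library; the log2 fold change of 2.50 became 1.56 without T-bet- cDC2 replicate 3 and 3.13 with a term for library class.

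The Areg value followed the library classes. Without T-bet- cDC2 replicate 3, where class and cDC2 subset coincide, the log2 fold change between cDC2 subsets was 2.85 (adjusted p = 0.044). With all libraries and a term for library class it was 1.04 (adjusted p = 0.44). Transcripts of mast cells, basophils and type 2 innate lymphoid cells, other sources of AREG, were scarce: the 5 listed markers that the table holds summed to 0.706 to 1.66 CPM in spleen T-bet+ cDC2s and 1.34 to 3.93 in T-bet- cDC2s, and Fcer1a and Ms4a2 were at 0 in the former. Their part in the result was not tested. In MLN Areg was low in every subset, with 1, 0 and 5 reads in cDC1s, 15 and 3 in T-bet+ cDC2s and 5 and 30 in T-bet- cDC2s.

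At the Areg locus, 5 windows were assigned, 4 of them near a transcription start, and none differed between T-bet+ and T-bet- cDC2s. The window with the most reads was centred at -57 from the gene's start. It held 10.0 and 5.30 CPM of the reads in windows in cDC1s, 11.0 and 13.6 in T-bet+ cDC2s and 15.1 and 14.4 in T-bet- cDC2s, so cDC1s were lowest and both cDC2 subsets close to each other. It was called higher in T-bet- cDC2s than in cDC1s (log2 fold change 0.94 ± 0.25, adjusted p = 0.0026), a call lost in 4 of 11 alternatives, among them without cDC1 replicate 2 (0.56, adjusted p = 0.21). Its sequence is shown because it holds the cAMP response element (CRE) letters TGACGTCA, at -61 to -54 from the RefSeq start; they are found in 1.79% of 32841 RefSeq promoters of the same length and in 0.332% of 177953 windows. Here and below sequences are from the mm10 plus strand, 5′ to 3′, with capitals on letters that match a searched motif on either strand (CRE, and GAGGAAGT for PU.1, in this window); a match is not shown to be a bound site. The last 19 bases of the window, which are transcribed, are left out.
Areg -57, chr5:91139468-91139598: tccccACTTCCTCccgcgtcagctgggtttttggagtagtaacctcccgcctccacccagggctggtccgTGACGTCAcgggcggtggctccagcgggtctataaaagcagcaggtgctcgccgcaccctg

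Hbegf was low in spleen, with 2.99, 3.80 and 2.61 CPM in T-bet- cDC2s, 0.554, 0.975 and 0.581 for T-bet+ cDC2s and 0.162, 0.905 and 0.338 in cDC1s. All 3 T-bet- cDC2 libraries were above all the others. The T-bet- cDC2 level was higher than that of cDC1s (6.61-fold, adjusted p = 0.018), a call lost without cDC1 replicate 3 (adjusted p = 0.057) or T-bet- cDC2 replicate 2 (adjusted p = 0.059), and the difference from T-bet+ cDC2s did not pass the main test (log2 fold change -2.14 ± 0.62 for T-bet+ over T-bet-, adjusted p = 0.086; 0.011 by DESeq2).

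The highest Hbegf levels of the 16 libraries were those of MLN T-bet- cDC2s, at 14.1 and 12.9 CPM, against 1.73 and 0.732 in MLN T-bet+ cDC2s and 3, 0 and 1 reads in MLN cDC1s. Every other library of the 16 was below 4 CPM. In edgeR's test the difference between cDC2 subsets of MLN had a log2 fold change of -3.49 ± 0.70 and an adjusted p of 0.23, and the difference from spleen T-bet- cDC2s one of 2.11 ± 0.64 and an adjusted p of 0.067. Both cDC2 subsets of MLN were called above cDC1s (adjusted p = 0.018 for T-bet+ and 0.0018 for T-bet-). The T-bet+ call was lost in 7 of 15 alternatives (adjusted p up to 0.089), among them those without T-bet+ cDC2 replicate 1, cDC1 replicate 3 or either T-bet- cDC2 replicate, and its log2 fold change of 4.44 ran from 3.71 to 5.72 (the latter without cDC1 replicate 1). Among 4 windows at Hbegf, 1 exonic window at +2841 was more accessible in both cDC2 subsets than in cDC1s, with 5.65 and 8.02 CPM in cDC1s, 15.1 and 20.7 in T-bet+ cDC2s and 13.4 and 12.8 in T-bet- cDC2s (log2 fold change over cDC1s 1.39 ± 0.24 for T-bet+ and 0.95 ± 0.25 for T-bet-, adjusted p = 3e-06 and 0.0023). The T-bet- call was lost in 4 of 11 alternatives (adjusted p up to 0.1).

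The metalloproteinases gave the widest contrasts. Mmp9, the gelatinase B that cuts denatured collagen, stood at 204, 233 and 224 CPM in spleen T-bet+ cDC2s, at 5.54, 5.04 and 11.9 in T-bet- cDC2s and at 1.01, 2.47 and 1.98 in cDC1s. No group overlapped another, and T-bet+ cDC2s were more than an order of magnitude above the rest. Their level was 29.4-fold that of T-bet- cDC2s (log2 fold change 4.88 ± 0.45, adjusted p = 0.00045), and it remained between 4.67 and 5.30 on the log2 scale when each spleen library was left out in turn. T-bet+ cDC2s exceeded cDC1s by 121-fold (adjusted p = 1.6e-05), and T-bet- cDC2s exceeded cDC1s by 4.13-fold (adjusted p = 0.0081).

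Neutrophils are a known source of MMP9, so their markers were measured beside it. The summed level of 8 neutrophil markers was 91.0 to 101 CPM in spleen T-bet+ cDC2s, 73.5 to 118 in T-bet- cDC2s and 30.1 to 41.4 in cDC1s, and Ly6g reached 0.457 CPM at most in the cDC2 libraries. Their sums thus overlapped between the cDC2 subsets of spleen, whose Mmp9 levels did not, and their part in the result was not tested. In MLN the same markers summed to 0.0 to 14.0 CPM. MLN T-bet+ cDC2s held 12.7 and 3.58 CPM of Mmp9 and MLN T-bet- cDC2s 2.35 and 3.48, groups that lay next to each other without overlap (log2 fold change 1.45 ± 1.00, adjusted p = 0.72). MLN cDC1s held 5, 0 and 16 reads, and T-bet+ cDC2s were called above them (adjusted p = 0.03), a call lost without cDC1 replicate 1, without T-bet+ cDC2 replicate 1 or without either T-bet- cDC2 replicate.

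None of the 3 windows at Mmp9 was called between T-bet+ and T-bet- cDC2s. The intronic window at +445 held 2.24 and 2.98 CPM in cDC1s, 8.51 and 5.08 in T-bet+ cDC2s and 4.27 and 5.01 in T-bet- cDC2s. It was called higher in T-bet+ cDC2s than in cDC1s (log2 fold change 1.38 ± 0.35, adjusted p = 0.001), a call lost with DESeq2 (adjusted p = 0.014), without cDC1 replicate 1 (0.034) and without T-bet+ cDC2 replicate 1 (0.074). The widest difference between cDC2 subsets was that at +12484 (log2 fold change 1.67 ± 0.57, adjusted p = 0.044), in a window with 0.366 to 2.38 CPM, which is above the threshold of 0.01 used for windows. The +445 window is shown as the 1 Mmp9 window with a call; its capitals mark the STAT letters TTCNNNGAA, which 4.29% of all windows hold.
Mmp9 +445, chr2:164941151-164941300: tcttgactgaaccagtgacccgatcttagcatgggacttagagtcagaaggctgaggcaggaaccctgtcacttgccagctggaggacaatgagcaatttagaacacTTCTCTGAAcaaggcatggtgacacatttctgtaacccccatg

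Mmp12, the macrophage elastase, separated both cDC2 subsets from cDC1s. In spleen it stood at 529, 294 and 268 CPM in T-bet- cDC2s, at 233, 193 and 190 in T-bet+ cDC2s and at 1.21, 2.30 and 2.27 in cDC1s. Both subsets were far above cDC1s, by 188-fold (T-bet-, adjusted p = 5e-06) and 106-fold (T-bet+, adjusted p = 6.4e-06). The cDC2 subsets did not overlap but lay close, and the difference between them did not pass the test (log2 fold change -0.82 ± 0.31, adjusted p = 0.19).

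In MLN Mmp12 was lower in each subset, at 32.3 and 54.2 CPM in T-bet- cDC2s, at 32.3 and 15.5 in T-bet+ cDC2s, and with 2, 0 and 3 reads in cDC1s. Both cDC2 subsets of MLN were called above cDC1s (adjusted p = 0.00056 and 0.00089).

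The 13 windows assigned to Mmp12 went both ways between cDC2s and cDC1s. The intronic window at +1321 was the most accessible of them in cDC1s, with 29.4 and 31.8 CPM against 7.44 and 7.36 in T-bet+ cDC2s and 9.52 and 11.3 in T-bet- cDC2s (log2 fold change -2.05 ± 0.22 and -1.55 ± 0.21 over cDC1s, adjusted p = 3.6e-12 and 1.4e-08). In both cDC2 subsets the window at -7121, called in no comparison, had the highest level, at a mean of 13.9 CPM (T-bet+) and 13.6 CPM (T-bet-). Windows at -41, across the start, and at -3863 were also called lower in both cDC2 subsets; the calls at -41 were lost in 5 (T-bet+) and 4 (T-bet-) of 11 alternatives, with an adjusted p up to 0.25, and those at -3863 in 3 of 11 for either subset. These 3 windows were thus more open in cDC1s, which held the least Mmp12 transcript.

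Windows at -13776 and -997 were called higher in both cDC2 subsets than in cDC1s, that at +2960 in T-bet+ cDC2s alone and that at -14003 in T-bet- cDC2s alone (log2 fold change 2.18 ± 0.59, adjusted p = 0.0032, lost in 4 of 11 alternatives). At -13776, cDC1s had 1.18 and 1.29 CPM, T-bet+ cDC2s 7.76 and 6.94 and T-bet- cDC2s 8.66 and 7.92 (log2 fold change over cDC1s 2.56 ± 0.37 and 2.73 ± 0.37, adjusted p = 4.7e-08 and 1.1e-08). At -997 the values were 1.77 and 1.29, 7.87 and 7.36, and 4.88 and 4.91 in the same order. The window at +2960, beside a second RefSeq start of Mmp12, had 2.00 and 2.20 in cDC1s, 9.81 and 9.22 in T-bet+ cDC2s and 4.39 and 2.81 in T-bet- cDC2s (over cDC1s 2.17 ± 0.34, adjusted p = 3e-07, and 0.76 ± 0.38, adjusted p = 0.14), and was the 1 Mmp12 window called between cDC2 subsets (log2 fold change 1.41 ± 0.31, adjusted p = 0.0007). That call was lost with DESeq2 (adjusted p = 0.011) and without T-bet- cDC2 replicate 2.

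The 3 windows called higher in T-bet+ cDC2s than in cDC1s are the 3 of the 13 that hold the AP-1 letters TGANTCA, and -997 holds them at 2 adjoining places. In T-bet- cDC2s the match is not the same: of the 3 windows called higher than in cDC1s, -13776 and -997 hold these letters and -14003 does not, and +2960 was not called. AP-1 letters are in 7.9% of all windows and in 5 of the 64 member windows. Outside Mmp12 these are Areg +8626 and Tgfb1 +19014, which were called in no comparison. Their log2 fold changes for T-bet+ cDC2s over cDC1s were -1.13 and 0.38. The match at Mmp12 was seen after all the motifs listed below had been searched. The +1321 window holds the STAT letters at 2 places, in a sequence that is open in cDC1s. The 4 windows are printed to show these letters side by side; 43 transcribed bases of +2960 are left out.
Mmp12 -13776, chr9:7330531-7330680: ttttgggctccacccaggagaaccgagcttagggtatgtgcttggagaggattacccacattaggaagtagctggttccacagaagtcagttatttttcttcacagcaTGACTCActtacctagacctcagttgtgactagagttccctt
Mmp12 -997, chr9:7343310-7343459: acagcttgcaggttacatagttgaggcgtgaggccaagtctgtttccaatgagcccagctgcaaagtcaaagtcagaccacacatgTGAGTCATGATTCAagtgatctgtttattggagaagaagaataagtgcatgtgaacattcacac
Mmp12 +2960, chr9:7347267-7347373: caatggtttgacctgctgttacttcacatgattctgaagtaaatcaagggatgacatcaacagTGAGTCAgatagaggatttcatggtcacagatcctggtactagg
Mmp12 +1321, chr9:7345628-7345777: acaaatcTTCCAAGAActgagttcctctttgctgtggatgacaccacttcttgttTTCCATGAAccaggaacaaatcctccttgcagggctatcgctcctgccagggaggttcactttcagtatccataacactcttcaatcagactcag

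Mmp14, the membrane-bound collagenase that activates other metalloproteinases, went with T-bet- cDC2s. It stood at 15.6, 28.9 and 104.5 CPM in spleen T-bet- cDC2s, at 6.06, 2.36 and 3.49 in T-bet+ cDC2s and at 1.58, 1.69 and 0.193 in cDC1s. No group overlapped another, and T-bet- cDC2 replicate 3 was far above its fellows. T-bet- cDC2s exceeded T-bet+ cDC2s by 12.5-fold (log2 fold change -3.64 ± 0.86 for T-bet+ over T-bet-, adjusted p = 0.04) and cDC1s by 42.6-fold (adjusted p = 0.0039). The log2 fold change over cDC1s, 5.41, was called in every alternative that gave a value and ran from 4.20 without T-bet- cDC2 replicate 3 to 6.22 with a term for library class.

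The call between cDC2 subsets depended on the libraries. It was lost in 7 of the 9 fits that left out 1 library, with an adjusted p of 0.061 and a log2 fold change of -2.57 without T-bet- cDC2 replicate 3, and with the replicate number as a block (adjusted p = 0.14). With a term for library class the log2 fold change was -4.85 (adjusted p = 0.00029). In MLN, T-bet- cDC2s held 15.5 and 26.2 CPM, T-bet+ cDC2s 0.752 and 0.655 and cDC1s 0.325, 1.17 and 0.328, so that T-bet- cDC2s alone were above 1.2 CPM. T-bet- cDC2s of MLN exceeded cDC1s by 35.9-fold (adjusted p = 0.0036), and the difference from MLN T-bet+ cDC2s, of -4.90 ± 0.70 on the log2 scale, had an adjusted p of 0.094 in edgeR's test.

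The windows assigned to Mmp14 were more open in both cDC2 subsets than in cDC1s. They lie close together, between bases 54442466 and 54443141, and none is at the promoter. All 3 windows, in an intron at +10928, +11125 and +11454, were called higher in both cDC2 subsets than in cDC1s (both calls at +11454 were lost in 3 of 11 alternatives), and none was called between the subsets. The window with the most reads, at +11125, held 5.30 and 3.88 CPM in cDC1s, 22.6 and 15.0 in T-bet+ cDC2s and 10.3 and 13.7 in T-bet- cDC2s. It was thus highest in T-bet+ cDC2s, the cDC2 subset with less Mmp14 transcript, at a log2 fold change of 0.64 ± 0.23 over T-bet- cDC2s (adjusted p = 0.058). Its sequence is shown for that reason, with the PU.1 letters in capitals, which are in 5.5% of all windows.
Mmp14 +11125, chr14:54442663-54442812: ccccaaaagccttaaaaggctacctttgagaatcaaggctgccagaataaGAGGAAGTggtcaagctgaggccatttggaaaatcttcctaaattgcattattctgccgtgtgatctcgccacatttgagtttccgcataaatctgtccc

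Timp1, which encodes a secreted metalloproteinase inhibitor, was not detectable as a transcript at this depth. It had 8 reads in all, in 4 of the 16 libraries and at most 3 in any of them. On library totals without the TMM factor, 3 reads correspond to 0.103 to 0.143 CPM. A count of 0 allows a level up to that limit, for counting error only. Its start carried 2 windows of low signal, which lie equally close to Syn1, and neither was called in any comparison.

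Vegfa followed the pattern of Mmp12, with little in cDC1s and much in both cDC2 subsets. In spleen it stood at 52.8, 36.8 and 30.9 CPM in T-bet+ cDC2s, at 39.1, 58.9 and 125 in T-bet- cDC2s and at 1.74, 2.96 and 0.435 in cDC1s. The cDC2 subsets overlapped, and both were above every cDC1 library. They exceeded cDC1s by 23.3-fold (T-bet+, adjusted p = 0.0015) and 43.0-fold (T-bet-, adjusted p = 0.00074), and did not differ from each other in the main test (log2 fold change -0.88 ± 0.58, adjusted p = 0.47). With a term for library class the latter value was -1.86 (adjusted p = 0.023), and without T-bet- cDC2 replicate 3 it was -0.37 (adjusted p = 0.71). Over cDC1s the T-bet- value of 5.43 became 6.10 and 4.76 in these 2 fits, both called.

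In MLN Vegfa stood at 7.94 and 4.01 CPM in T-bet+ cDC2s, 6.59 and 23.0 for T-bet- cDC2s and 0.243, 0.130 and 0.692 in cDC1s. Again both cDC2 subsets were above all cDC1 libraries, by 16.7-fold (adjusted p = 0.021) and 41.9-fold (adjusted p = 0.0082). The former call was lost without cDC1 replicate 2 (adjusted p = 0.062) or T-bet+ cDC2 replicate 1 (adjusted p = 0.1), and the latter without T-bet- cDC2 replicate 2 (adjusted p = 0.07).

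The Vegfa promoter was more accessible in both cDC2 subsets than in cDC1s. The window at -40 held 6.24 and 5.95 CPM in cDC1s, 16.3 and 16.7 in T-bet+ cDC2s and 17.7 and 18.2 in T-bet- cDC2s (log2 fold change over cDC1s 1.43 ± 0.24 and 1.55 ± 0.24, adjusted p = 1.1e-06 and 2.6e-07). The window at -494 was also called in both (0.94 ± 0.29 and 1.29 ± 0.28, adjusted p = 0.008 and 0.00024), but the T-bet+ call was lost in 6 of 11 alternatives (adjusted p up to 0.1) and the T-bet- call in 1. The 3 windows at -13292, -13395 and -13600 were called higher in T-bet+ cDC2s than in cDC1s and not in T-bet- cDC2s, that at -13292 with a loss in 3 of 11 alternatives. Of these, -13600 held 2.71 and 3.23, 8.84 and 9.12, and 4.88 and 5.22 CPM in the order used above, and its difference between cDC2 subsets had an adjusted p of 0.05. The hypoxia response letters TACGTG were in 1 Vegfa window, at -908, and in 1.75% of all windows.

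Tgfb1 was the member with the most even transcript level. In spleen it stood at 129, 119 and 127 CPM in T-bet+ cDC2s, at 43.9, 80.4 and 141 in T-bet- cDC2s and at 78.3, 119 and 51.6 in cDC1s. The groups overlapped except that T-bet+ cDC2s stood in a narrow band at the upper end, and no comparison of subsets passed the test in either tissue (log2 fold change between cDC2 subsets of spleen 0.50 ± 0.41, adjusted p = 0.58, and -0.085 with a term for library class). In MLN the values were 40.2 and 16.1 CPM in T-bet+ cDC2s, 19.0 and 44.5 for T-bet- cDC2s and 32.9, 20.9 and 26.2 in cDC1s.

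Around Tgfb1, 14 windows were assigned and 1 differed between cDC2 subsets. It lies at +20700, downstream of the end of the gene, and held 9.41 and 8.02 CPM in cDC1s, 16.2 and 16.8 in T-bet+ cDC2s and 29.7 and 33.1 in T-bet- cDC2s. The 3 groups were in separate steps, with a log2 fold change of -0.93 ± 0.20 for T-bet+ over T-bet- cDC2s (adjusted p = 0.00037, lost without T-bet- cDC2 replicate 2) and of 1.85 ± 0.21 for T-bet- cDC2s over cDC1s (adjusted p = 6.8e-11). The 7 windows near the start did not differ in any comparison. The sequence at +20700 is shown as the most T-bet- cDC2-skewed window of the locus, with the SMAD letters CAGACA, read on the other strand and held by 13.9% of all windows, in capitals.
Tgfb1 +20700, chr7:25707628-25707777: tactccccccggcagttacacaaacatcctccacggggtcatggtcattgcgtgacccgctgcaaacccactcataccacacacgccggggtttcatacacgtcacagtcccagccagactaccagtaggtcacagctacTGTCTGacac

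Osm, like Mmp9, was called between the cDC2 subsets of spleen in the main test and in all 17 alternatives. In spleen it stood at 116, 127 and 90.0 CPM in T-bet- cDC2s, at 17.8, 22.1 and 20.2 in T-bet+ cDC2s and at 5.47, 3.21 and 7.01 in cDC1s. No group overlapped another. T-bet- cDC2s exceeded T-bet+ cDC2s by 5.54-fold (log2 fold change -2.47 ± 0.31 for T-bet+ over T-bet-, adjusted p = 0.0021) and cDC1s by 21.3-fold (adjusted p = 2.8e-05), and T-bet+ cDC2s exceeded cDC1s by 3.84-fold (adjusted p = 0.002). With a term for library class the value between cDC2 subsets was -2.08 (adjusted p = 0.0016).

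The same order held for Osm in MLN, with 89.1 and 150 CPM in T-bet- cDC2s, 15.1 and 16.8 for T-bet+ cDC2s and 4.10, 11.0 and 17.1 in cDC1s. The T-bet+ cDC2 and cDC1 libraries overlapped and T-bet- cDC2s stood above both. T-bet- cDC2s exceeded cDC1s by 11.7-fold (adjusted p = 0.008; 0.074 without T-bet- cDC2 replicate 2), and the difference from T-bet+ cDC2s, of -2.93 ± 0.58 on the log2 scale, had an adjusted p of 0.21 in edgeR's test and of 9.6e-05 in DESeq2's.

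Of the 10 windows at Osm, 1 was called in each direction between the cDC2 subsets. The exonic window at +303 held 1.06 and 2.98 CPM in cDC1s, 3.34 and 2.69 in T-bet+ cDC2s and 5.98 and 10.1 in T-bet- cDC2s (log2 fold change -1.43 ± 0.34, adjusted p = 0.0021). It was lost with DESeq2 (adjusted p = 0.046) and without replicate 2 of either cDC2 subset. The window at +10881, downstream of the gene, held 3.88 and 6.08, 11.4 and 16.7, and 4.39 and 6.72 in the same order, and was thus raised in T-bet+ cDC2s, the cDC2 subset with less Osm transcript (log2 fold change 1.32 ± 0.27, adjusted p = 0.00028, lost without T-bet+ cDC2 replicate 2 or T-bet- cDC2 replicate 1). The 5 windows at +9, +303, +394, +476 and +1261 were called higher in T-bet- cDC2s than in cDC1s. The call at +394 was lost in 3 of 11 alternatives (adjusted p up to 0.29), that at +476 in 2 and that at +303 in 1. In T-bet+ cDC2s, +9 and +1261 were also called higher than in cDC1s (log2 fold change 1.17 and 1.88, adjusted p = 0.0065 and 4.9e-06). The same was true of +10449 and +10881. The +10881 window is shown for its opposite direction; it holds none of the letters searched.
Osm +10881, chr11:4247227-4247376: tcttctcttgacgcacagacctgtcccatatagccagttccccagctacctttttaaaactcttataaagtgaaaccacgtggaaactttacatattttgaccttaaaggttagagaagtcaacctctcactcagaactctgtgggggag

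Whether the difference between cDC2 subsets itself changed from spleen to MLN was tested as a difference of differences in a fit of all 16 libraries. No member was called, against 0.00595% of 16795 genes, which is 1 gene; 847 genes and 1 member (Mmp9) had an unadjusted p under 0.05, and DESeq2 also called no member. The widest value was that of Mmp9, whose T-bet+ over T-bet- ratio was 3.39 ± 0.95 higher on the log2 scale in spleen (unadjusted p = 0.003, adjusted p = 0.76), followed by Areg at 2.97 ± 1.41 (adjusted p = 0.95). Without the filter on low counts Mmp9 was called (3.41, adjusted p = 1.6e-06).

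Within a subset, levels were mostly lower in MLN than in spleen. T-bet+ cDC2s had 4 members lower in MLN, against 5.09% of genes called: Areg by 35.0-fold (log2 fold change -5.13 ± 1.19, adjusted p = 0.028), Mmp9 by 27.0-fold (-4.76 ± 0.80, adjusted p = 0.0067), Mmp12 by 8.60-fold (adjusted p = 0.0045) and Tgfb1 by 4.44-fold (adjusted p = 0.041). All 4 calls were lost without MLN T-bet+ cDC2 replicate 2, and those of Areg and Tgfb1 also without any 1 spleen replicate and with a term for library class, which moved Areg to -3.07 (adjusted p = 0.12). Against the mean of their own tissue, the 3 spleen T-bet+ libraries had a GC correlation of 0.19 to 0.24 and the MLN T-bet+ libraries one of -0.060 and -0.22. The cut between classes was a rho of 0.1, so they fell into different classes by tissue. Each tissue has its own mean, so these values do not compare GC content between tissues. The class term thus cannot adjust for a GC difference between spleen and MLN. T-bet- cDC2s had 1 member lower in MLN, Mmp12 by 8.41-fold (adjusted p = 0.0037, 0.06 without MLN replicate 1), against 5.95%, while Osm was level (log2 fold change 0.11 ± 0.45, adjusted p = 0.91).

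In cDC1s 4 members were lower in MLN, against 11.7% of genes called: Hbegf, Mmp9, Mmp12 and Tgfb1, the last by 3.12-fold (adjusted p = 0.037). Without spleen replicate 2 or without MLN replicate 2 the count was 1, and without MLN replicate 3 it was 2. Mmp12 was called in each of these fits, and of the 9 members it alone was called lower in MLN in all 3 subsets. MLN libraries also differed in makeup: 4 markers of mature migratory DCs summed to 2880 to 14800 CPM in MLN and 1520 to 5000 in spleen. In T-bet+ cDC2s the MLN libraries lay on either side of the spleen range of 4200 to 4810 CPM, at 2880 in replicate 1, which held more Areg, Mmp9, Mmp12 and Tgfb1, and at 10700 in replicate 2. MLN cDC1 replicate 1, at 4060 CPM, was far below the other two, at 14800 and 14400. The part of these markers in the results was not tested. The labels name no preparation run, so tissue and whatever was done separately for each tissue cannot be told apart.

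Monocyte and macrophage markers, summed, were also highest in T-bet- cDC2s in both tissues. The summed level of 8 monocyte and macrophage markers was 752 to 1080 CPM in spleen T-bet- cDC2s, 418 to 491 in T-bet+ cDC2s and 102 to 193 in cDC1s, and in MLN 744 to 1130, 330 to 394 and 84.6 to 210. Of the 8, C1qa stood at 136 to 206 CPM in spleen T-bet- cDC2s and 11.3 to 18.6 in T-bet+ cDC2s, Mertk at 2.52 to 6.49 and 0 to 0.396, and Fcgr1, which encodes the CD64 used to exclude macrophages, at 5.36 to 7.91 and 0.412 to 0.832. Adgre1 overlapped between the subsets at 336 to 551 and 347 to 416. In MLN it was lower in T-bet- cDC2s, at 87.5 to 90.3 CPM against 191 to 362 in T-bet+ cDC2s. Among T-bet- cDC2 libraries the members did not share 1 order with the summed markers. In spleen, replicate 1 had the highest sum (1080), the highest Mmp12 (529) and the lowest Mmp14 (15.6). In MLN, replicate 1 (1130 against 744 in replicate 2) had less Mmp14, Osm and Mmp12 and slightly more Hbegf (14.1 against 12.9). Stromal and endothelial markers, 6 genes, summed to 69.9 to 141 CPM in spleen T-bet- cDC2s and 81.5 to 91.8 in T-bet+ cDC2s. The part of these cells in the levels of Mmp14, Osm, Mmp12 and Hbegf was not tested.

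**Figure D4:**
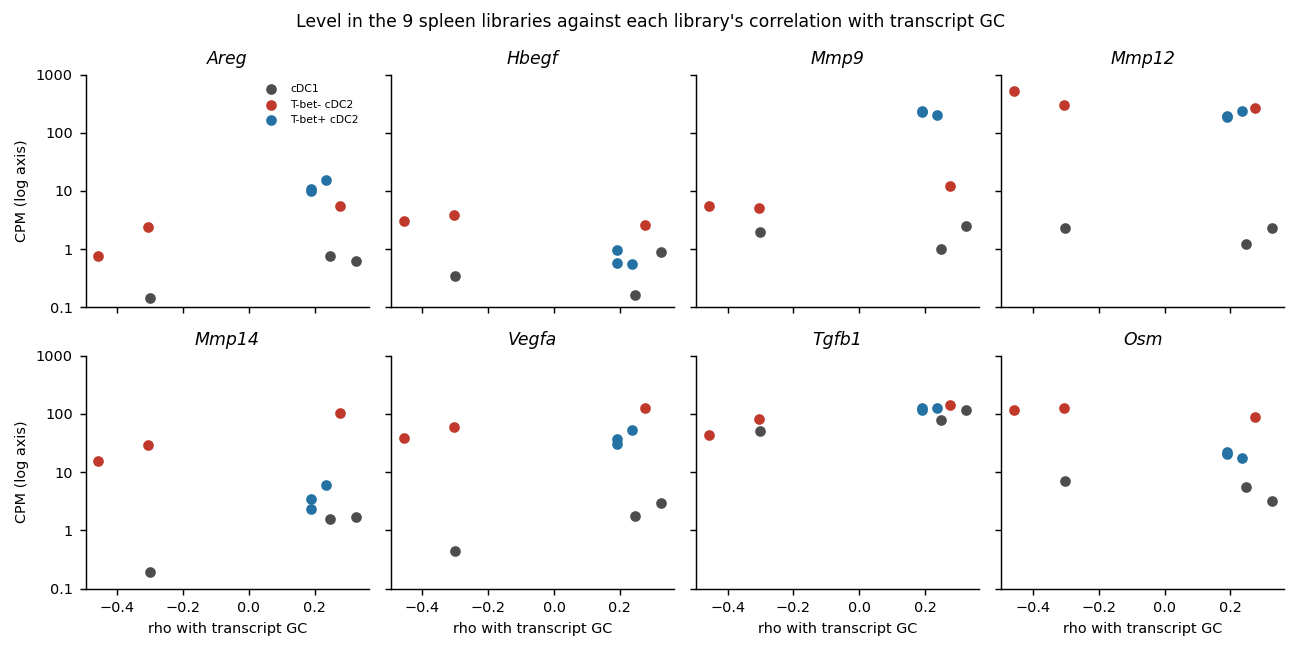
RNA level (CPM, log axis) of 8 of the 9 genes in each of the 9 spleen libraries against that library's Spearman correlation (rho) with transcript GC content, coloured by subset. Within T-bet- cDC2s, Areg (0.770 to 5.59), Mmp14 (15.6 to 104.5), Vegfa (39.1 to 125) Tgfb1 (43.9 to 141) and Mmp9 (5.04 to 11.9) are highest in the library at the right, while Osm, Hbegf and Mmp12 are not.

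The receptors, enzymes and relatives of these factors were counted from lists of the same pathways. Between spleen T-bet+ and T-bet- cDC2s, 5.38% of all genes tested were called, which is the background for the counts here and in the next paragraph. With so few genes in each list, the counts are not read as results about a family. None of 8 tested other metalloproteinases and none of 2 other inhibitors was called. Of 10 genes of the EGF family, its receptors and sheddases, 1 was lower in T-bet+ cDC2s, Rhbdf2, a rhomboid protein that escorts the sheddase ADAM17 (17.3 ± 2.43 against 36.4 ± 5.66 CPM, SD, adjusted p = 0.041). In the VEGF family 2 of 7 were lower, the co-receptors Nrp1 (11.9 ± 3.64 against 40.4 ± 3.41 CPM, adjusted p = 0.012) and Nrp2 (2.35 ± 1.55 against 15.4 ± 7.33, adjusted p = 0.033).

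Of 17 TGF-β family genes 2 were lower in spleen T-bet+ cDC2s, both matrix proteins: Tgfbi (363 ± 12.2 against 883 ± 74.1 CPM, adjusted p = 0.0012) and Thbs1, which can activate latent TGF-β (24.4 ± 10.1 against 271 ± 185, adjusted p = 0.0078). In the IL-6 family 1 of 9 was lower, Il27 (1.24 ± 0.29 against 5.06 ± 0.56 CPM, adjusted p = 0.025). Of 15 other repair factors, Il1rn, the IL-1 receptor antagonist, and Thbs1 were lower (Il1rn at 28.5 ± 3.54 against 337 ± 90.9 CPM, adjusted p = 0.00038), and the transglutaminase Tgm2, which crosslinks matrix proteins, was higher (1400 ± 73.9 against 714 ± 192 CPM, adjusted p = 0.032).

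Between the cDC2 subsets of MLN no gene of these lists was called, nor was any other gene tested. In spleen T-bet+ cDC2s over cDC1s, 18.2% of all genes tested were called in either direction. Of 10 EGF family genes 0 were higher and 1 was lower in T-bet+ cDC2s, and of 8 metalloproteinases 0 and 3. Of 2 inhibitors the counts were 0 and 0, of 7 VEGF family genes 1 and 1, and of 17 TGF-β family genes 3 and 2. Of 9 IL-6 family genes they were 1 and 0, and of 15 other repair factors 3 and 1. T-bet- cDC2s had 1 and 1, 1 and 2, 0 and 0, 4 and 0, 4 and 2, 1 and 0, and 5 and 2 in the same order. The share over all genes was 15.9% there.

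Against cDC1s, Tgm2, Plaur (the urokinase receptor) and Il1rn were higher in both cDC2 subsets of both tissues. In spleen, Tgm2 stood at 14.9 ± 1.79 CPM in cDC1s, far below both cDC2 subsets, and Plaur at 24.9 ± 7.04 against 396 ± 89.4 for Plaur in T-bet+ cDC2s and against 959 ± 357 for T-bet- cDC2s. The metalloproteinases Mmp19 and Mmp28 were instead higher in spleen cDC1s than in either cDC2 subset, with Mmp19 at 6.90 ± 2.53 CPM in cDC1s, 1.32 ± 0.22 for T-bet+ cDC2s and 1.92 ± 1.22 for T-bet- cDC2s. Between tissues, Mmp25 and Mmp23 were higher in MLN in all 3 subsets, with Mmp25 at 170 ± 17.5 against 10.8 ± 2.05 CPM in T-bet- cDC2s, the direction opposite to that of Mmp12.

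Over the 16 RNA-seq libraries, some members had like profiles. The highest Pearson correlation of log2 CPM between members was that of Mmp12 and Vegfa (r = 0.960), followed by Areg and Mmp9 (0.899), and the lowest was that of Tgfb1 and Osm (-0.018). Among 11085 genes, the profile closest to that of Mmp12 was that of the cDC2 lectin Cd209a (r = 0.986), the closest to Osm that of Il1rn (0.958), and the closest to Vegfa that of the kinase Syk (0.978). Areg was closest to Neurl3 (0.975), Hbegf to Mtus1 (0.925), Mmp9 to AW011738 (0.941) and Tgfb1 to the kinase Sik1 (0.974). These values describe 16 libraries that share subsets, tissues and library classes, and no p is given.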

How the data were processed

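RNA-seq libraries (SMARTer amplification, paired-end 50-base reads; the labels name TruSeq and the study's methods another library kit) and ATAC-seq libraries of sorted DCs were used. RNA reads were aligned by the authors to mm10 with HISAT2 2.1.0 and SAMtools 1.9 and deposited as counts per gene (GENCODE vM17 annotation, whether by strand is not given in the sources used here). ATAC-seq reads were aligned with Bowtie2 2.2.5, and the deposited counts are reads in 150-base windows around the summits of peaks that the authors called with MACS2 2.1.1.20160309. The deposited peak and window positions carry a score that is 0 throughout and a −log10 p value of each summit, neither of which was used.

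Groups came from the sample labels. In each assay and tissue all subsets were fitted together in edgeR 4.0.16 (R 4.3.3) with filterByExpr, TMM scaling and the quasi-likelihood test, Benjamini-Hochberg adjustment over all genes or windows, and calls at an adjusted p under 0.05 for RNA, or under 0.01 with a log2 fold change over 0.5 in size for windows. MLN was compared with spleen in a fit of all 16 libraries. CPM divide counts by a library's total times its TMM factor, which ran from 0.8962 to 1.162 in the RNA-seq libraries. RPKM divide CPM by the length of all annotated exons of a gene, merged. The limit of 3 reads for a count of 0 covers counting error only. A window was assigned to a member where it was the closest gene (or tied with another) within 50000 bases, with gene models of GENCODE M21 on GRCm38.p6. The standard error is the log2 fold change divided by the square root of F. Alternatives were DESeq2 1.42.0, other filters and scalings, a replicate block, leaving out each library, and, chosen after seeing the data, a term for library class and a newer quasi-dispersion estimate. Replicate numbers were not shown to pair the samples.

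Named genes are all 9 members, the 3 genes most correlated with each (the first is printed, except for Mmp14, where it is not reported here) and, with values, at most the 3 genes of a pathway list with the lowest p in a comparison. The members and lists were chosen with earlier results of these data known. RefSeq promoters (GRCm38) were matched for 6 of the 9 members, not for Hbegf, Mmp9 or Osm. Motif letters were searched on both strands: AP-1 TGANTCA, CRE TGACGTCA, STAT TTCNNNGAA, NF-kB GGNNTTTCC, HIF TACGTG, T-box AGGTGTNA, Runx TGTGGTT, C/EBP TTGCNNAAN, Nr4a AAAGGTCA, PU.1 GAGGAAGT and SMAD CAGACA; no matches of different motifs overlapped.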

Additional observations from a re-analysis of the deposited data

How the results depend on the processing

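Of 1120 member fold changes refitted under the alternatives, 64 lost a call, 50 gained one, 10 were counted as reversed and 996 as unchanged. The unchanged ones kept their side of the threshold, but a few values near 0 among them changed sign. Of 495 refits of called windows, 421 kept the call and 74 lost it. In spleen, the count of members called between T-bet+ and T-bet- cDC2s went from 3 to 5 with DESeq2, and with at least 10 counts in every library the counts over cDC1s went to 3 (T-bet+, from 5) and 3 (T-bet-, from 7). Between the cDC2 subsets of MLN the count of 0 became 3 with DESeq2, with no filter for low counts and with a replicate block by library name, 2 with the newer quasi-dispersion estimate and 1 with only the compared subsets. For MLN T-bet+ cDC2s over cDC1s the count of 4 became 1 at an adjusted p under 0.01, 0 with at least 10 counts in every library, and 2 with library class as a term or only the compared subsets; for T-bet- cDC2s the count of 5 became 1 with at least 10 counts. Between tissues, the difference of differences went from 0 to 1 without a filter, cDC1s from 4 to 7 without a filter, T-bet- cDC2s from 1 to 4 with DESeq2, 6 without a filter and 3 with library class, and T-bet+ cDC2s from 4 to 2 with a replicate block or library class. The minimum of 10 counts removes members with few reads in 1 subset from the test; otherwise the cause was not tested.

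For windows, the count of 4 between cDC2 subsets became 8 when windows within 50000 bases were assigned, and 2 within 2000 bases, at the stricter threshold and with DESeq2. Over cDC1s, the T-bet+ count of 21 became 50 and 9 at those distances and 13 with DESeq2, and the T-bet- count of 20 became 37, 11 and 12, and 13 with whole peaks. Leaving out 1 library at a time gave 2 to 3 members in spleen between cDC2 subsets, 5 to 5 and 5 to 7 over cDC1s, 0 to 0, 1 to 4 and 3 to 5 in MLN in the same order, 0 to 0 for the difference of differences, 1 to 5, 0 to 1 and 0 to 4 between tissues (cDC1s first, then T-bet- cDC2s, then T-bet+ cDC2s), and 1 to 4, 15 to 21 and 11 to 20 windows.

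The values counted as reversed were all of uncalled results, and all but 2 came from leaving out 1 library. With a term for library class, Tgfb1 between spleen cDC2 subsets was -0.085 and Areg between MLN cDC2 subsets 0.53. Without T-bet- replicate 3, Tgfb1 in spleen T-bet- cDC2s over cDC1s was -0.47 (range over the libraries left out -0.47 to 0.45). Without MLN T-bet- replicate 2, Areg between MLN cDC2 subsets was 0.96 (-2.44 to 0.96), Tgfb1 between them 0.52 (-0.96 to 0.52; 0.34 without T-bet+ replicate 2), Tgfb1 in MLN T-bet- cDC2s over cDC1s -0.42 (-0.42 to 0.76), and the differences of differences of Vegfa -0.73 (-0.73 to 1.08) and Tgfb1 -0.049 (-0.049 to 1.47). Without MLN T-bet+ replicate 1, Tgfb1 in MLN T-bet+ cDC2s over cDC1s was -0.69 (-0.69 to 0.63). Other uncalled values near 0 also changed sign when 1 library was left out and are not in that count. Mmp14 in MLN T-bet+ cDC2s over cDC1s (0.26) went down to -0.055. Mmp12 in the difference of differences (0.032) went down to -0.37, and Osm in T-bet- cDC2s of MLN over spleen (0.11) to -0.30.

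With the replicate number as a block, 2 members were called between spleen cDC2 subsets. Same-numbered spleen RNA libraries deviated from their group means with correlations of -0.74 to 0.431: those of cDC1s with T-bet+ cDC2s were 0.431, 0.2 and 0.175, and those with T-bet- cDC2s were all below 0. In MLN they were 0.657 and 0.62 for cDC1s with T-bet+ cDC2s and 0.207 and 0.014 for cDC1s with T-bet- cDC2s. Both pairs of cDC2 subsets had -0.137, which is 1 value by construction with 2 libraries in each group. The library names of MLN T-bet- cDC2 replicates 1 and 2 carry the numbers 2 and 3. Paired by name, these libraries correlated with cDC1s at -0.014 and 0.357, and that named 2 with T-bet+ cDC2s at 0.137. The number is thus not shown to pair them, although cDC1s and T-bet+ cDC2s of 1 number moved together; in spleen the block changed no call between these 2 subsets. With 2 libraries in each cDC2 group of MLN and in each ATAC-seq group, 1 library can decide a call, and Timp1, Hbegf in spleen and Areg in MLN are limited by their few reads.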
